A study of Nasonia vitripennis with 70 samples.

Results

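The 200 genes described here had high transcript levels in abdomens of haploid males and very low levels in abdomens of diploid females and in heads of haploid males. They were chosen by their values in the deposited table of TPM (transcript levels scaled for gene length and library depth), which holds 14613 genes, 13784 of them with symbols that start with LOC. Of the LOC genes, 2534 averaged at least 50 TPM over the 9 abdomen libraries of haploid males. For these, that average was divided by the larger of the averages in diploid female abdomens and in haploid male heads, with 0.1 added to each, and the 200 highest ratios were kept. Levels in haploid male abdomens, diploid female abdomens and haploid male heads therefore chose the genes and are given below as description only.

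All libraries hold poly-A RNA from WGDL, a line of the jewel wasp Nasonia vitripennis in which colchicine doubled the genome, so haploids and diploids share the line's history. Abdomens and heads were taken 1 day after emergence. The male abdomens were F15 diploid (2N, 4 libraries), F15 haploid (1N, 4), F5 diploid (5) and F5 haploid (5). The female abdomens were F14 triploid (3N, 4), F14 diploid (4), F2 triploid (5) and F2 diploid (4), and heads of all 8 kinds gave 35 more of the 70 libraries. Libraries bear codes such as C96. The labels do not say whether a library came from 1 animal or a pool, or whether libraries of a group came from separate cultures, so each p-value measures the spread between these libraries.

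Nasonia is haplodiploid: unfertilised eggs normally give haploid sons and fertilised eggs give daughters, and unfertilised eggs of a triploid mother can give diploid sons. The organs found only in the male abdomen are the testes, the seminal vesicles that store sperm, and the accessory glands, whose secretions travel with the sperm. Insect testes transcribe many genes that are silent elsewhere, among them genes for sperm tails and for packing the nucleus of the sperm. The symbols of the 200 genes carry no description, so no role is assigned to any of them. The reference gene table for assembly Nvit_psr_1.1 lists 192 of them as protein-coding and 8 as long non-coding RNA.

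By the rule, averages in haploid male abdomens ran from 51.5 to 4515 TPM with a median of 223 TPM. The ratio ran from 53.3 to 29238 with a median of 625.1. LOC103316198 (55.5), LOC100679373 (55.1) and LOC100680466 (53.3) had the lowest ratios taken, and LOC100122349 (52.7), LOC100119363 (50.02) and LOC103317099 (49.5) the highest left out, so the limit falls within a continuous range. The highest average belonged to LOC100680151 (4515 TPM), followed by LOC100680250 (2924 TPM) and the non-coding LOC103316810 (2735 TPM). LOC100680250, first by ratio (29238), needs care: its TPM rests on only 142 counts over the 4 F15 haploid libraries and 2283 counts over the 5 F5 haploid libraries. Counts divided by TPM put its effective length at 0.00387 of that of a library's median gene, and no other of the 200 was below 0.05.

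One library labelled F5 diploid male abdomen, C46, had the transcripts of a head. Lop1, the long-wavelength opsin of the eye, was at 3337 TPM in C46, and the cuticle gene CPR48 at 84536 TPM. The 5 head markers (Or1, Lop1, HisCl1, white and Pdf) summed to 4224 TPM in C46 and to 0.13 to 1.68 TPM in the other 4 F5 diploid male abdomens. Across genes, its TPM ranked like those of F5 diploid male heads (Spearman rho 0.952 to 0.978) more than like those of the F5 diploid abdomens (0.766 to 0.792). The 200 genes summed to 115 TPM in C46. It was left out of all values below except where it is named. In the other male abdomens, head markers summed to at most 4.6 TPM and oskar, nanos and Hb, transcripts of the female germ line, to at most 9.19 TPM, against 661 to 1912 TPM in female abdomens. No testis or accessory gland marker was among the lists.

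Summed over the 200 genes, the level in F15 diploid male abdomens was 22535 ± 3307 TPM (SD, n = 4), against 78631 ± 26319 TPM in F15 haploid male abdomens (n = 4). At F5 it was 59478 ± 17860 TPM in diploid abdomens (n = 4) and 90966 ± 27896 TPM in haploid abdomens (n = 5). The libraries of F15 diploids (19717 to 26300 TPM) all lay below those of F15 haploids (42902 to 105043 TPM), while those of F5 diploids (38155 to 76399 TPM) overlapped those of F5 haploids (64715 to 121427 TPM). As a share of all expected counts, the genes took 1.80 ± 0.302% in F15 diploids, 6.44 ± 2.13% in F15 haploids, 4.81 ± 1.34% in F5 diploids and 7.08 ± 2.45% in F5 haploids. The median gene stood at 12.4 TPM in F15 diploids, 217 TPM in F15 haploids, 119 TPM in F5 diploids and 223 TPM in F5 haploids. A mean of 10 TPM or more was reached by 111 genes in F15 diploids, 198 in F15 haploids, 199 in F5 diploids and 200 in F5 haploids.

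**Figure D1:**
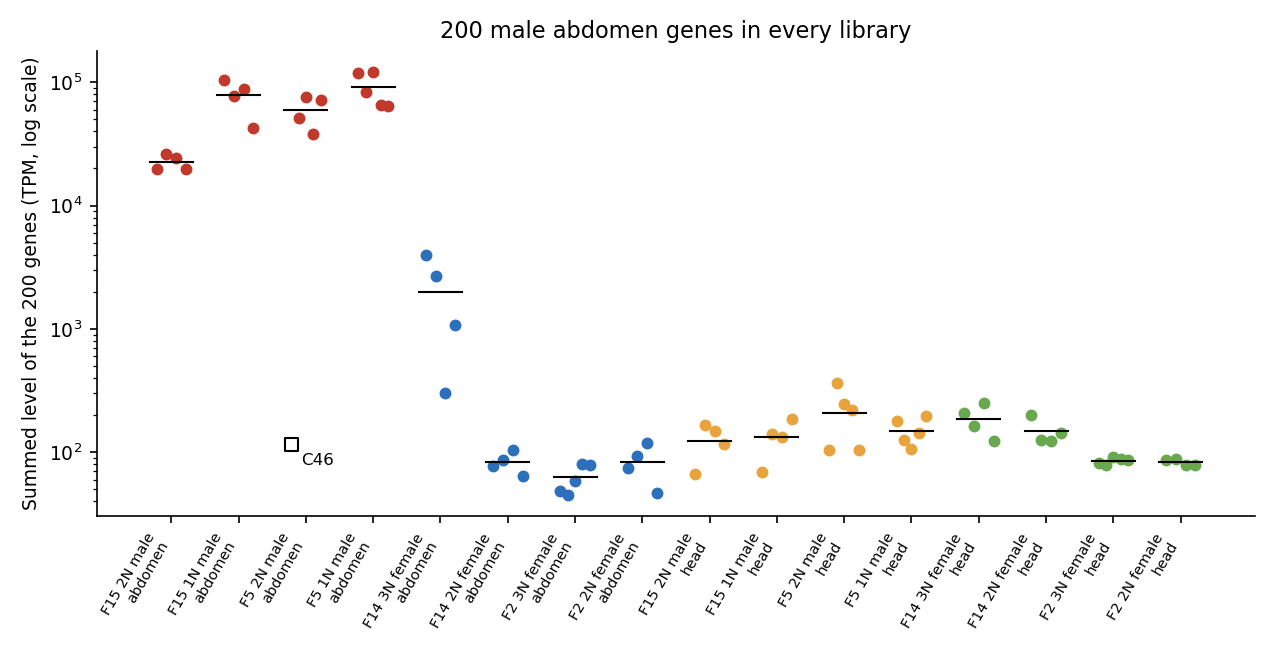
Summed level of the 200 genes in each of the 70 libraries (points, TPM on a log scale) with the group mean (line, without C46); red, blue, orange and green mark male abdomens, female abdomens, male heads and female heads. The 4 F15 diploid male abdomens sit between 19717 and 26300 TPM, below the other male abdomens, and C46 (open square, 115 TPM) sits among the heads.

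The pattern that chose the genes was looked at again in samples the rule had not used. Diploid male abdomens of F15 and F5 (n = 8) were set against diploid male heads of F15 and F5 (n = 9), asking which transcripts belong to the abdomen. Of 199 genes tested, 198 were higher in the abdomens and 1 was not called, by edgeR's quasi-likelihood test with Benjamini-Hochberg adjustment at an adjusted p below 0.05 (34.4% of all 12385 genes tested were called higher). For 121 genes every abdomen lay above every head (7.45% of all genes tested). Summed levels in the heads were 124 ± 43.2 TPM at F15 and 208 ± 109 TPM at F5. From counts pooled over the libraries, with a floor of 3 counts over the group of heads, the median difference was 8.28 on the log2 scale (quartiles 6.76 and 9.51). The floor applied to 1 gene without a count in these heads and to 11 with 1 to 3 counts, and it lowers their ratios. The gene not called was LOC100678638, at 0 to 0.5 TPM in the 4 F15 diploid abdomens and 1.81 to 58.4 TPM in the 4 F5 diploid abdomens. LOC107982148 did not pass the filter on low counts in the fit of males.

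Diploid male abdomens were also compared with triploid female abdomens of F14 and F2 (n = 9), a comparison of the sexes in which ploidy and generation differ too and cannot be told apart from sex. Here 197 genes were higher in males and 3 were not called (45.7% of all 12291 genes tested were called higher). For 157 genes every male lay above every female library (11.2% of all genes tested). Pooled counts gave a median difference of 9.75 on the log2 scale (quartiles 7.78 and 10.91), with the same floor over the females; 22 genes had no count in any of these females and 27 had 1 to 3. The median of the fitted log2 values was 9.60; it was 6.75 with limma on log2(TPM + 0.1), and 10.31 without C66, C67 and C69. The 3 genes not called were LOC107982148 (log2 1.19, SE 1.58, adjusted p = 0.489), LOC103315668 (0.30, SE 0.79, adjusted p = 0.726) and LOC100678638 (-2.02, SE 2.27, adjusted p = 0.411). The count was also 197 with C46 kept, and it was 198 without C66, C67 and C69.

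Female abdomens were not uniform in these genes. The F14 triploid abdomens summed to 3972 TPM in C66, 2695 TPM in C67, 304 TPM in C68 and 1072 TPM in C69, against 82.7 ± 16.4 TPM in F14 diploid abdomens. F2 triploid abdomens (62.4 ± 16.7 TPM) and F2 diploid abdomens (83.04 ± 30.3 TPM) were at the level of F14 diploids. C66, C67 and C69 also had lower levels of female germ line transcripts than C68. In C66 to C69 nanos was at 235, 161, 569 and 88.1 TPM, and oskar at 575, 778, 903 and 548 TPM. The part of this in the genes' levels was not tested. LOC100114739 and LOC103315668 made up most of the sums in C66 and C67. LOC100114739 was at 2164 TPM in C66, 1428 TPM in C67, 68.5 TPM in C68 and 17.7 TPM in C69. LOC103315668 was at 1006 TPM in C66, 709 TPM in C67, 1.42 TPM in C68 and 3.79 TPM in C69. Both were thus high in the same 2 libraries. LOC100678638 instead was highest in C69, at 672 TPM, against 39.1 TPM in C66, 30.2 TPM in C67 and 0 in C68.

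The same 2 triploid libraries stood out for the serine protease gene SP49, at 3798 TPM in C66 and 2275 TPM in C67, against 69.5 TPM in C68 and 78.1 TPM in C69. Among F15 haploid male abdomens, SP49 was at 597 TPM in C88 and 506 TPM in C89, against 162 TPM in C86 and 26.9 TPM in C87. LOC103315668 was likewise higher in C88 and C89, at 257 TPM in C88 and 204 TPM in C89, against 19.2 TPM in C86 and 6.14 TPM in C87. So was LOC100119490, at 4382 TPM in C88 and 5215 TPM in C89, against 703 TPM in C86 and 419 TPM in C87. Their haploid averages in the rule thus came mainly from part of the libraries. SP49 belongs to a list of 4 cuticle and gut markers (with Cht5, SP142 and CPR48), which summed to 80.0 to 3905 TPM in F14 triploid abdomens, 485 to 703 TPM in F15 diploid, 222 to 1727 TPM in F15 haploid, 141 to 768 TPM in F5 diploid and 198 to 350 TPM in F5 haploid male abdomens. The others did not all follow SP49. Cht5 was at 47.6, 41.9, 5.88 and 104 TPM in C66 to C69, and SP142 at 57.9, 38.8, 4.61 and 72.4 TPM. Both were thus highest in C69. Among F15 haploids Cht5 was higher in C88 (983 TPM) and C89 (1190 TPM) than in C86 (643 TPM) and C87 (167 TPM). SP142 was highest in C86 (46.2 TPM). CPR48 was at 0 in all F15 and F5 diploid abdomens without C46, and the part of these tissues in the genes' levels was not tested. In all, 11 of the 200 genes reached 10 TPM in some female abdomen. LOC103315327 did so in 10 female libraries without exceeding 33.2 TPM, and the remaining 189 stayed below 10 TPM in all 17. In heads, 15 genes reached 10 TPM in some library, led by LOC100116183 at up to 58.2 TPM.

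The ploidy comparison asks how transcripts of male abdomens differ when males carry a second chromosome set. At F15, 170 of the 200 genes were lower in diploid than in haploid abdomens, 2 were higher and 28 were not called (edgeR quasi-likelihood test, Benjamini-Hochberg adjustment; 15% of the 12291 genes tested were called lower and 7.44% higher). The haploid side had chosen the genes for their high level there, so a lean towards lower values in diploids is built in. The median difference was -4.07 on the log2 scale, against -0.13 over all genes tested, and the quartiles were -4.98 and -3.43. Without C97 the median was -5.12. All 4 diploid libraries lay below all 4 haploid libraries for 178 genes (17.4% of all genes tested). Among the 2331 other LOC genes that met the same level in haploids and were tested, 12.7% were lower and 18.7% were higher, with a median of 0.11. Each of the 170 was at least 2-fold lower. With abdomens of this kind, fewer cells of a type and less RNA per cell cannot be told apart.

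**Figure D2:**
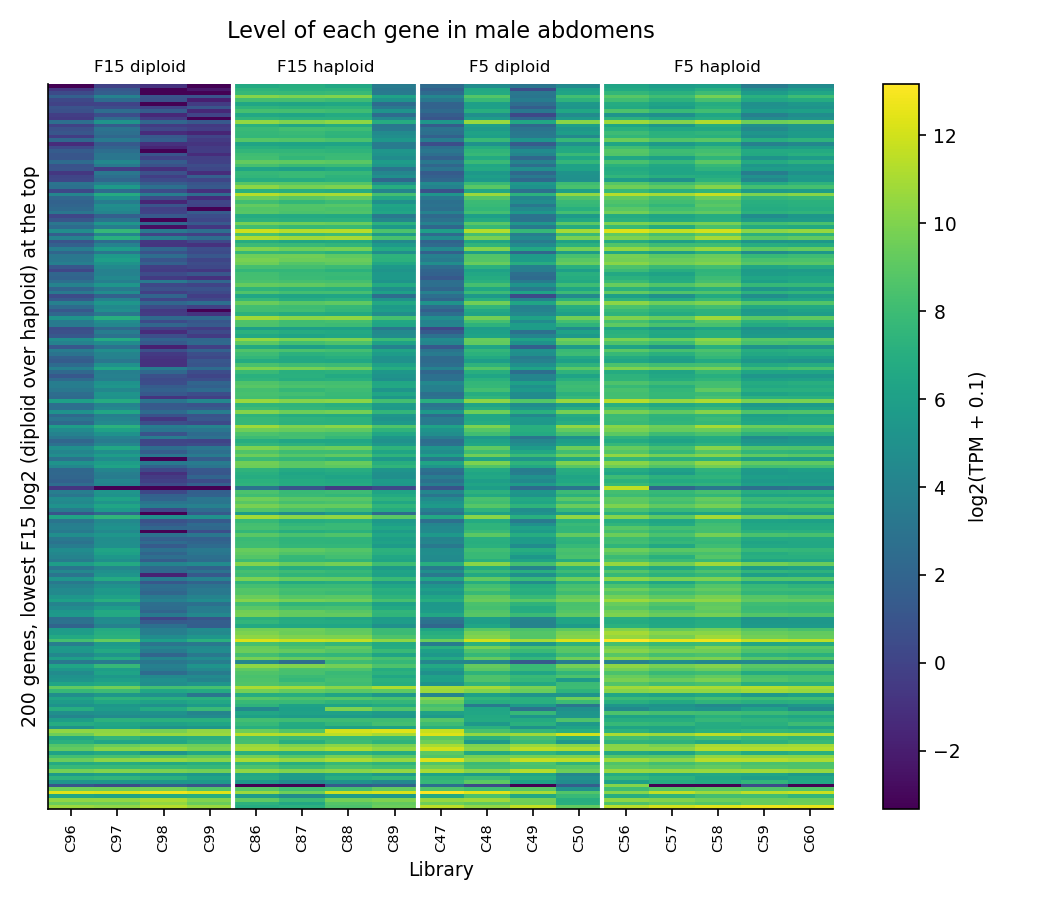
Level of each of the 200 genes (log2(TPM + 0.1), colour) in the 17 male abdomens without C46, genes ordered by their F15 difference with the lowest at the top. Most genes are dark in the 4 F15 diploids; C89 at F15 and C47 and C49 at F5 are darker than the rest of their groups, and a band of genes at the bottom does not follow.

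The largest decreases left almost no transcript in F15 diploids. LOC100680244 had 0, 0.8, 0.43 and 0 TPM in F15 diploids C96 to C99, against 106, 124, 95.0 and 11.4 TPM in F15 haploids C86 to C89. The 4 diploid libraries together held 5 counts of it and the haploid libraries 1496, and the fitted difference was log2 -7.97 (SE 1.11, adjusted p = 5.03e-05). LOC100121678 (log2 -7.34, SE 1.29) and LOC100122593 (log2 -7.30, SE 1.35) showed the same shape, each with no TPM above 2.88 in a diploid. For these 3 genes even the lowest haploid library, C89, stood above every diploid library.

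LOC100114292 was at 3.27, 16.1, 1.82 and 1.74 TPM in diploids C96 to C99, against 1143, 980, 1064 and 75.9 TPM in haploids C86 to C89. Its difference was log2 -7.07 (SE 1.12, adjusted p = 6.45e-05). LOC116738588, one of the 8 genes with the highest ratios, was at 6.33, 36.6, 4.46 and 2.36 TPM in the diploids and 1465, 1016, 1337 and 116 TPM in the haploids (log2 -6.22, SE 1.06, adjusted p = 0.000144). Diploid C97 was the highest of its group and haploid C89 the lowest of its group for both. The most abundant gene, LOC100680151, fell less: it had 307, 617, 63.99 and 144 TPM in the diploids and 4794, 3580, 3094 and 1345 TPM in the haploids (log2 -3.39, SE 0.82, adjusted p = 0.00293). The non-coding LOC103316810 was at 60.3 ± 92.2 TPM in diploids and 2374 ± 1471 TPM in haploids (log2 -5.22, SE 1.13, adjusted p = 0.00146).

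**Figure D3:**
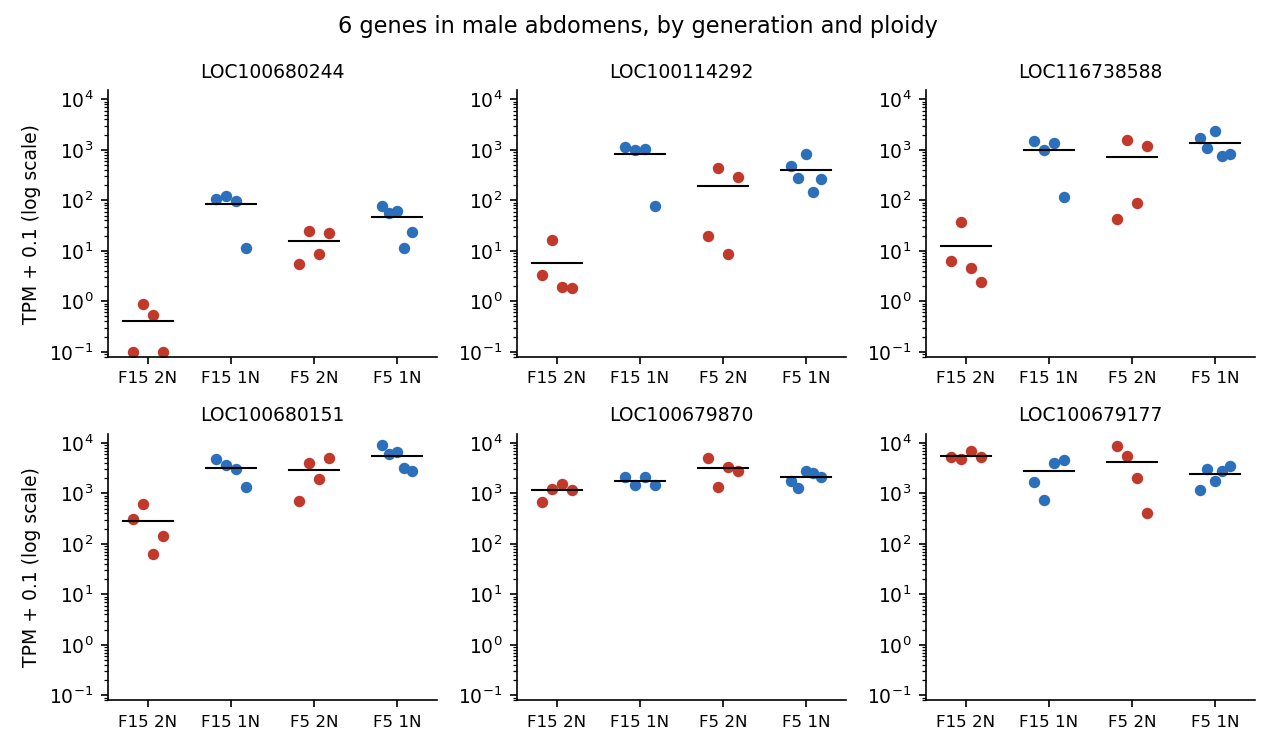
TPM + 0.1 (log scale) of 6 genes in each male abdomen without C46 (points; red diploid, blue haploid) with the group mean (line). In LOC100680244, LOC100114292, LOC116738588 and LOC100680151 all F15 diploids lie below all F15 haploids, in LOC100679870 they overlap, and in LOC100679177 all F15 diploids lie above all F15 haploids.

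The next values split the genes by their F15 call, so the contrast between the groups at F15 is set by the split and is a description. The 28 genes not called summed to 16901 TPM in F15 diploids and 18729 TPM in F15 haploids, with a median log2 difference of -0.68. The 170 lower genes summed to 3713 TPM in F15 diploids and 59518 TPM in F15 haploids, a 16.03-fold difference. Several of the 28 were among the most abundant and most restricted of the 200. LOC100679870, second by ratio, was at 684, 1245, 1512 and 1180 TPM in diploids C96 to C99, against 2064, 1485, 2133 and 1484 TPM in haploids C86 to C89 (log2 -0.50, SE 0.58, adjusted p = 0.614). LOC100678938 was at 1359 ± 419 TPM in diploids and 2487 ± 361 TPM in haploids (log2 -0.74, SE 0.57, adjusted p = 0.409). LOC100679177 was at 5181, 4778, 6796 and 5301 TPM in diploids C96 to C99, against 1666, 752, 3907 and 4522 TPM in haploids C86 to C89 (log2 1.21, SE 0.81, adjusted p = 0.330). All diploids thus lay above all haploids, as also for LOC100121269 (log2 1.38, SE 0.78, adjusted p = 0.225) and LOC100123934 (log2 1.65, SE 0.79, adjusted p = 0.147), without passing the test. LOC100121269 passed (adjusted p = 0.0358) when F15 males were fitted alone.

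LOC100680250 and LOC100115863 were the 2 genes called higher in F15 diploids. With the 3 genes just named they made up the 5 whose diploid libraries all lay above the haploid ones (6.16% of all genes tested). LOC100115863 was at 93.8, 80.4, 112 and 131 TPM in diploids C96 to C99, against 55.7, 26.8, 57.9 and 46.3 TPM in haploids C86 to C89 (log2 1.32, SE 0.44, adjusted p = 0.0290). Its call ended without C99 (adjusted p = 0.0826), C98 (0.0512), C89 (0.0517) or C87 (0.105), each of which left 1 gene higher. LOC100680250 was at 1682, 1406, 2588 and 1592 TPM in the diploids and 121, 139, 372 and 717 TPM in the haploids (log2 2.56, SE 0.58, adjusted p = 0.00417), resting on 795 counts in the diploids and 142 in the haploids. With C46 kept in the fit of all abdomens neither was called higher, and 160 genes were called lower.

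At F5 the ploidy comparison gave another picture. None of the 200 genes was called in F5 diploids (0.0488% of the 12291 genes tested were called lower and 0.268% higher), and the smallest adjusted p was 0.131. At an unadjusted p below 0.05 edgeR passed 16 of the 200, of which 10 were lower, beside 1524 of all 12291 genes tested. The number among the 200 was 51 (47 lower) without C50, 25 (18 lower) without C48, 10 without C56 and 6 without C47. DESeq2 called 1 gene higher, LOC100119490 (adjusted p = 0.0231), beside 214 higher and 79 lower of all 12291 genes. Limma on TPM called none, and 121 of the 200 were at an unadjusted p below 0.05, all lower in diploids. Its median was -1.46, against -0.23 over all genes. The share of all genes at that unadjusted limit was not counted for limma or for the fits with a library left out. Without C48, 2 genes were called higher, beside 259 higher and 133 lower of all 12510 genes. The fitted values still leaned down: 178 genes lay below 0, with a median of -0.80 against -0.04 over all genes tested, in the direction the rule favours. No gene had all F5 diploid libraries below all F5 haploid libraries (2.64% of all genes tested did). The 170 genes lower at F15 had a median of -0.83 at F5, 169 of them below 0, and summed to 34205 TPM in F5 diploids and 67266 TPM in F5 haploids. The 28 not called at F15 had a median of 0.33 at F5 and summed to 23077 TPM in F5 diploids and 18490 TPM in F5 haploids.

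**Figure D4:**
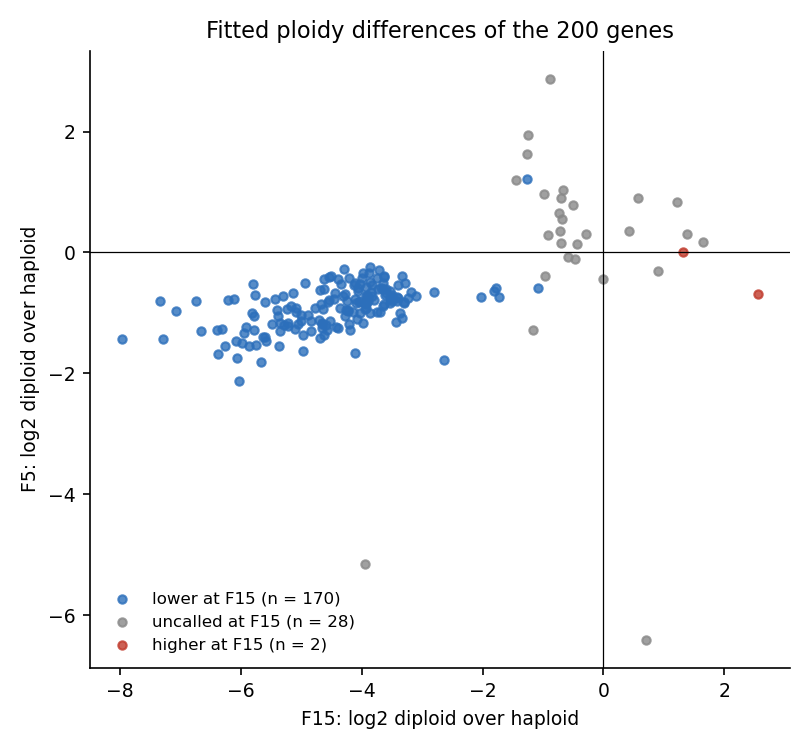
Fitted log2 difference between diploid and haploid male abdomens at F15 (horizontal) and at F5 (vertical) for the 200 genes, coloured by their call at F15. The 170 genes lower at F15 (blue) reach -7.97 on the horizontal axis and no less than -2.12 on the vertical axis; haploid levels chose all genes, which favours values below 0 on both axes.

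The F5 diploids fell apart into high and low libraries. The median gene was at 15.8 TPM in C47, 179 TPM in C48, 41.9 TPM in C49 and 168 TPM in C50, against 115 to 324 TPM in the 5 F5 haploids. Relative to the mean of F5 haploids the median log2 difference was -3.71 in C47, -0.29 in C48, -2.32 in C49 and -0.30 in C50. For 162 of the 170 genes lower at F15, C48 and C50 were both above C47 and C49. LOC100114292 followed this, with 19.3 TPM in C47, 437 TPM in C48, 8.56 TPM in C49 and 293 TPM in C50, against 144 to 826 TPM in F5 haploids. The difference between the fitted means, log2 -0.97 (SE 0.83, adjusted p = 0.674), did not pass. LOC100680244 was at 5.38, 24.7, 8.43 and 22.6 TPM in C47 to C50, against 11.4 to 77.6 TPM in F5 haploids (log2 -1.44, SE 0.75, adjusted p = 0.451).

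C47, lowest of the F5 diploids for 157 of the 170 genes, was the highest for 18 of the 28 not called at F15. Over all 10739 genes with a mean of 1 TPM or more in male abdomens, C47 was the lowest F5 diploid for 17.6% and the highest for 23.8%. C50 was the lowest for 14 of the 28, near its share of 41.9% over all those genes. LOC100679870 was at 5065 TPM in C47, 1350 TPM in C48, 3302 TPM in C49 and 2836 TPM in C50, against 1269 to 2746 TPM in F5 haploids. LOC100679177 was at 8486 TPM in C47, 5546 TPM in C48, 2062 TPM in C49 and 410 TPM in C50, against 1144 to 3524 TPM in F5 haploids. Both genes were highest in C47, where most of the 170 were lowest.

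Whether the ploidy difference itself changed between generations was tested with an interaction term. For 87 genes the difference was more negative at F15 than at F5 and for 1 it was more positive (4.55% and 1.39% of all genes tested), with a median change of -3.29 on the log2 scale against -0.11 over all genes (-4.29 without C97). LOC100680244 (-6.53, SE 1.26, adjusted p = 0.00612), LOC100121678 (-6.53, SE 1.47, adjusted p = 0.0124), LOC100114292 (-6.10, SE 1.27, adjusted p = 0.00654) and LOC100680006 (-5.94, SE 1.15, adjusted p = 0.00300) had the largest changes among the genes called. LOC100680250 was the one gene on the positive side (3.24, SE 0.78, adjusted p = 0.0250). Its call ended without C98, C87, C86 or C48, with C46 kept and with male abdomens fitted alone (adjusted p 0.0502 to 0.114). The number of calls rested on single libraries. It was 15 without C98, 22 without C50, 23 without C86, 26 without C96, 28 without C48, 31 without C99, 32 without C87, 33 without C60, 34 without C59 and 47 without C57. It was 143 without C89, 146 without C47 and 159 without C97. Fitting male abdomens alone gave 4 and keeping C46 gave 9. Lower calls over all genes tested moved with the fit too. They numbered 559 of 12291 in the main fit, 214 of 12528 without C98 and 266 of 12457 without C86. Without C89 they numbered 913 of 12531, without C47 701 of 12522 and without C97 669 of 12515. There were 106 of 11766 with male abdomens alone and 388 of 12308 with C46 kept.

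The generations of diploids were compared directly, and neither side of that comparison had been used to choose the genes. Of the 200, 170 were lower in F15 than in F5 diploid male abdomens, none was higher and 30 were not called (7.09% of the genes tested were called lower and 1.88% higher). The median difference was -3.53 on the log2 scale, against -0.04 over all genes, and 40 genes had all F15 diploids below all F5 diploids (2.75% of all genes tested). The median was -4.54 without C97 and -2.93 without C50. LOC100678390 was at 1.88, 0.68, 0.36 and 1.06 TPM in F15 diploids C96 to C99, against 7.96, 103, 28.04 and 72.02 TPM in F5 diploids C47 to C50 (log2 -5.92, SE 0.85, adjusted p = 0.000147). LOC116738588 was at 12.4 ± 16.2 TPM in F15 diploids and 722 ± 774 TPM in F5 diploids (log2 -6.09, SE 1.05, adjusted p = 0.00105). The low F5 libraries set how far this result goes. LOC116738588 was at 42.2 TPM in C47 and 89.4 TPM in C49, near the 36.6 TPM of the highest F15 diploid, and at 1570 TPM in C48 and 1186 TPM in C50.

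That count was not the same under other settings. With diploid males fitted alone, with their own filter, scaling and spread, edgeR called none of the 200 genes. That fit called few genes at all: of 10810 tested, 2 were lower and 1 was higher. Of the 200, 181 were at an unadjusted p below 0.05, all lower in F15, and the smallest adjusted p was 0.0714. The share of all 10810 genes at that unadjusted limit was not counted for this fit. DESeq2 on all abdomens called 173 lower, beside 1095 of all 12291 genes. With C46 kept, 106 were called lower, beside 1098 of all 12308. Leaving out single libraries gave 128 (without C96, beside 560 of 12537) to 170 (without C47, beside 1034 of 12522). Generation cannot be told apart from the time of collection and handling.

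Haploid males had few calls between generations. In F15 against F5 haploid abdomens 1 gene was higher and 7 were lower (9.52% and 7.05% of the genes tested), with a median of -0.19 against 0.06 over all genes. Both groups had chosen the genes, through 1 average over 5 F5 and 4 F15 libraries, so these values are a description. A gene very high in either group could pass by that group, and F5 weighed somewhat more. LOC100119490 was higher at F15, at 703, 419, 4382 and 5215 TPM in C86 to C89, against 100 to 195 TPM in the 5 F5 haploids (log2 3.83, SE 0.90, adjusted p = 0.00407). LOC116417036 was lower, at 69.5 ± 13.3 TPM in F15 and 275 ± 61.7 TPM in F5 haploids (log2 -2.20, SE 0.54, adjusted p = 0.00549), as were LOC100115863 (46.7 ± 14.1 and 217 ± 75.95 TPM) and LOC100680250 (337 ± 278 and 4993 ± 1556 TPM).

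Among the lower genes, LOC100678638 and LOC107982148 rested on 1 F5 haploid library. In C56 they stood at 3136 and 1143 TPM, and in the other 4 F5 haploids at 4.05 to 9.37 TPM and 0 to 1.29 TPM. Without C56 the log2 differences were -1.45 (adjusted p = 0.479) and 1.99 (adjusted p = 0.419), and 4 genes were lower in all. Leaving out C88 or C87 also left 4 lower, and without C86 2 were higher. The average of LOC107982148 that let it pass the rule, 128 TPM, came from that library.

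Across the 17 male abdomens the genes moved largely together. The first principal component of log2(TPM + 0.1), centred by gene, held 91.6% of their variance and the next 2.18%. With the median gene, 165 genes had a Pearson r above 0.8, 26 below 0.5 and 11 below 0, a description over libraries that share ploidy and generation. All 165 were among the 170 lower in diploids at F15, which make up most of the median gene and were called on 8 of the same libraries, so this overlap is largely built in. Of the 28 genes not called there, 24 had an r below 0.5. The libraries kept their order across the block. Within F15 diploids C97 was the highest for 164 of the 170 lower genes, and C89 was the lowest F15 haploid for 166. Over all 10739 genes with a mean of 1 TPM or more in male abdomens, C97 was the highest F15 diploid for 25.9%. The share over all genes was not counted for C89.

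The 3 markers of dividing cells found of 7 sought (fzy, cycB and Cdk1, none at 0 throughout a group) were at low levels. They summed to 2.68 to 6.54 TPM in F15 diploids, 9.07 to 29.9 TPM in F15 haploids, 4.11 to 12.8 TPM in F5 diploids and 10.3 to 25.4 TPM in F5 haploids. The cyclin gene cycB was at 0.39, 1.41, 0.30 and 0.26 TPM in F15 diploids C96 to C99, against 10.7, 13.3, 13.7 and 1.70 TPM in F15 haploids C86 to C89. Among F5 diploids it was at 0.41 TPM in C47, 3.45 TPM in C48, 0.38 TPM in C49 and 2.7 TPM in C50. The libraries low in the 170 genes (C47, C49 and C89) were thus low in cycB as well. The regulator of cell division fzy was also lower in C47 (2.88 TPM) and C49 (3.38 TPM) than in C48 (7.04 TPM) and C50 (6.42 TPM), but within F15 diploids it was highest in C98 (5.09 TPM), not in C97 (3.57 TPM). The kinase gene Cdk1 followed the 170 genes in part. It was at 0.40, 0.27, 1.15 and 0.54 TPM in F15 diploids C96 to C99, against 3.40, 3.24, 2.18 and 1.00 TPM in F15 haploids C86 to C89. Among F5 diploids it was lowest in C47 (0.82 TPM) and highest in C48 (2.31 TPM). Unlike most of the 170, it was lowest of the F15 diploids in C97 and higher in C49 (1.9 TPM) than in C50 (1.14 TPM). The part of dividing cells in the result was not tested.

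Many of the 200 genes were short. Counts divided by TPM put their median effective length at 0.557 of a library's median gene (quartiles 0.371 and 0.798). The median was 0.779 in the other LOC genes with the same level and 0.900 over all genes. The rule chose by TPM, which is scaled for gene length, so length is not independent of the choice. Some lay side by side. In the reference gene order 10.0% of the neighbours of these genes were themselves among the 200, which make up 1.37% of all genes. There were 16 runs of neighbours with 36 genes. In 11 runs all genes were lower in F15 diploids, in 3 none was lower and 2 were mixed. Of the 36 genes in runs 26 were lower, beside 170 of all 200, so runs of lower genes only are common by that share alone.

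The longest run held LOC100679935, LOC100119680, LOC100679870 and LOC100679833, and none of its genes was called at F15. Their log2 differences were -0.91 (SE 0.54, adjusted p = 0.255), -0.68 (SE 0.71, adjusted p = 0.566), -0.50 (SE 0.58, adjusted p = 0.614) and -1.45 (SE 0.56, adjusted p = 0.0625). Fitted on F15 males alone, LOC100679833 was called lower (log2 -1.42, adjusted p = 0.00677). LOC100119680 and LOC100679870 had nearly the same levels throughout, such as 981.5 and 1180 TPM in C99 or 4071 and 5065 TPM in C47. Summed expected counts of LOC100679870 were whole numbers in each group of male abdomens, such as 68140 in F15 diploids. Those of LOC100119680 (61508.86 in F15 diploids) and of LOC100679935 (1135.14) were not whole. The counting may divide reads shared between near copies, so single values within a run are uncertain where that happened. LOC100680250 and LOC103316810 were neighbours with opposite calls at F15, at log2 2.56 and -5.22.

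Of the genes with symbols other than LOC, 5 followed the median gene most closely over the 35 male libraries without C46. TctexA, named for a light chain of the motor protein dynein, had a Pearson r of 0.986, and 0.975 within the 17 abdomens. It was at 16.02 ± 12.8 TPM in F15 diploids, 169 ± 77.6 TPM in F15 haploids, 89.1 ± 60.6 TPM in F5 diploids and 166 ± 74.02 TPM in F5 haploids. CYP4AB21, a cytochrome P450, had an r of 0.977 (0.991 within abdomens) and stood at 11.3 ± 11.7, 128 ± 44.6, 71.9 ± 47.3 and 128 ± 51.7 TPM in the same order of groups. Cox6c, a subunit of cytochrome c oxidase, had an r of 0.933 (0.907 within abdomens) with 0.41 ± 0.48 TPM in F15 diploids and 28.8 ± 18.2 TPM in F15 haploids. The serine protease SP19 (r = 0.949) and the yellow family gene Y-x1c (r = 0.928) had an r of 0.499 and of 0.256 within abdomens. These values describe likeness over libraries that differ in tissue and ploidy, and nothing was tested on them.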

How the data were processed

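The authors deposited expected counts per gene (RSEM 1.3.1 after STAR 2.7.11a, per the submitters' processing notes) and TPM, which in the deposited table sum to 999999 to 1000001 per library. The labels name no genome build. Library totals ran from 12163580 to 25061605 counts. Expected counts were rounded (18.2% were not whole) and tested with edgeR 4.0.16 (TMM, filterByExpr, quasi-likelihood F test, group means) in R 4.3.3. One fit held all abdomens (34 libraries, 12291 genes) and one all males (35 libraries, 12385 genes), both without C46. P-values were Benjamini-Hochberg adjusted over all genes tested. Alternatives used RLE factors, no filter, DESeq2 1.42.0, the compared groups alone, C46 kept, limma 3.58.1 on log2(TPM + 0.1), and each library left out. The fits were tested on simulated data.

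Genes, lists and tests were chosen with earlier results of these data known. Genes are named by highest ratio (8), highest level (8), largest non-overlapping changes per comparison and direction (up to 4), failure in the tissue or sex comparison (up to 4), and nearness to the limit of the rule (3 on each side). Others (such as LOC100114739, LOC103315327, LOC100116183, LOC100123934, LOC100121269, SP49 and the run of 4 neighbours) were chosen after their values were seen. Planned lists by description, protein families, promoter motifs and protein features were not used, since no sequences or descriptions were at hand. The symbol Nos was left out of the germ line markers because it can stand for nitric oxide synthase. The reference gene table served for gene type and neighbour order only.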

Additional observations from a re-analysis of the deposited data

Results flagged for a closer look

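Single libraries stood far from the rest of their group in 13 of 120 groups of values examined. The limit used flags about 1 in 20 groups of independent, normally distributed values. These are raw TPM, some mostly 0, of genes that moved largely together. That rate is therefore no measure of chance here. Among F15 diploid male abdomens, C97 stood above the others for LOC100114292 (16.1 TPM), LOC103316810 (198 TPM) and LOC116738588 (36.6 TPM), C98 below them for LOC100119490 (872 TPM), and C96 was the one library with any TPM of LOC100678638 (0.50 TPM). Among F15 haploids, C89 stood below the others for LOC100114292 (75.9 TPM), LOC100121678 (9.35 TPM) and LOC100122593 (10.4 TPM), and C86 above them for LOC100678638 (7.41 TPM). Among F5 diploids, C47 stood apart for LOC100119490 (3529 TPM) and C48 for LOC100678638 (58.4 TPM). Among F5 haploids, C56 stood apart for LOC100678638 (3136 TPM) and LOC107982148 (1143 TPM).

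By an interaction term in edgeR, the ploidy difference was called more negative at F15 than at F5 for 87 genes and more positive for 1. Over all genes tested these calls took 4.55% and 1.39%. The 87 became 15 to 159 with a library left out, 9 with C46 kept and 4 with male abdomens fitted alone. Lower calls over all genes tested became 214 of 12528 (without C98) to 913 of 12531 (without C89) in the same fits. They were 388 of 12308 with C46 kept and 106 of 11766 with male abdomens alone. The 1 positive call was lost in several of these fits. The largest changes among the genes called in the main fit were -6.53 in LOC100680244, -6.53 in LOC100121678, -6.10 in LOC100114292 and -5.94 in LOC100680006, on the log2 scale. The positive change was 3.24 in LOC100680250.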

How the results depend on the processing

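The counts in the tissue, sex and F15 ploidy comparisons moved little under the alternatives run: 198 to 200 genes higher than in heads, 197 to 198 higher than in triploid females, and 160 to 174 lower in F15 diploids. Their sizes moved more: limma on TPM gave a median of 6.27 against 7.75 for tissue and 6.75 against 9.60 for sex, and leaving out a library gave medians of -5.12 to -3.74 for F15 ploidy, -4.54 to -2.93 for diploid generations and -4.29 to -2.74 for the interaction. The genes higher in F15 diploids numbered 0 with C46 kept, 1 with limma on TPM, and 1 to 2 with a library left out. At F5, DESeq2 called 1 higher and leaving out a library gave 0 to 2. Over all genes tested at F5, DESeq2 called 214 of 12291 higher, and leaving out C48 gave 259 of 12510. In diploids of F15 against F5, 106 were lower with C46 kept, and leaving out a library gave 128 to 170. With the compared groups alone 0 were lower, in a fit that called only 2 of all 10810 genes lower. In haploids of F15 against F5, 4 were higher with the compared groups alone; 4 were lower with C46 kept and 4 with limma; leaving out a library gave 1 to 2 higher and 4 to 6 lower. The interaction gave 9 lower and 0 higher with C46 kept, 4 and 0 with the compared groups alone, and 15 to 159 lower and 0 to 1 higher with a library left out. Over all genes tested it gave 388 of 12308 lower with C46 kept and 106 of 11766 with the compared groups alone. With a library left out it gave 214 of 12528 to 913 of 12531 lower. The cause of these shifts was not tested. LOC107982148 in haploids of F15 against F5 changed sign without C56, and leaving out a library gave log2 -8.63 to 1.99; LOC100678638 in the sex comparison changed sign without C66, C67 and C69, an alternative chosen after seeing the data (log2 3.86). Another pseudocount, F5 or F15 columns alone kept 196, 189 and 184 of the 200. RLE scaling moved the median of all genes by 0.15 in the sex comparison; TPM moved it by -0.46 (tissue), -0.45 (sex), 0.26 (diploid generations), -0.20 (F5 ploidy), 0.15 (haploid generations) and 0.12 (interaction). No paired analysis was possible because the labels give no replicate numbers shared by groups. Counts limit genes with few reads, such as LOC100680250, and groups of 4 or 5 libraries limit every spread.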
